A study of Mus musculus with 27 samples.

Results

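The clone gs2_B4 carries a CRISPR-Cas9 knockout of Drp1 (gene Dnm1l) in 4T1, a mouse mammary carcinoma line that spreads to distant organs. Its 3 libraries, chosen by the clone code in their column names, were compared with the 3 libraries of the parental 4T1 cells, which are labelled wild type, out of 27 libraries in the series. The 6 libraries belong to a knockout arm of 21 libraries, which holds the parental cells and 6 clones, 2 each for Drp1, Fis1 and Mff. A drug arm of 6 libraries (DMSO and leflunomide) was not used. No treatment is named for the parental cells or the clone, and both are 4T1 cells in culture. A second Drp1 clone, gs1B8, and a Fis1 clone, gs1_B11, serve as further comparisons, with 3 libraries each. gs2_B4 is 1 clone, so an effect of losing Drp1 and any other trait of that clone cannot be told apart from these libraries alone. The sources used here do not tie the clone codes to the clone numbers of the public labels. Nor do they state that the 3 libraries of a group were grown separately. The p-values therefore describe the spread among libraries of a group, estimated over all 21 libraries of the arm, which may be technical.

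Drp1 is a dynamin-like GTPase of the cytosol. Receptors on the outer mitochondrial membrane, among them Fis1, Mff and the MiD proteins, recruit it to the surface, where it assembles into rings that constrict and divide the organelle. Peroxisomes use the same machinery. Fission works against fusion, which mitofusins carry out on the outer membrane and Opa1 on the inner membrane, and in dividing tumour cells it helps to share mitochondria between daughter cells.

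The parental libraries held 20715428 to 24753800 counts and those of gs2_B4 23863311 to 26929711, and 13940 of 55401 genes had enough counts to be tested. Levels are given as CPM, counts scaled to a common library total with libraries scaled to each other, which do not correct for gene length. Libraries of a group correlated at 0.988 or more across genes, against 0.962 to 0.965 between parental cells and gs2_B4. Mitochondrially encoded genes took 2.88% to 3.11% of the counts in parental libraries and 3.51% to 3.79% in gs2_B4. The 6 markers of mammary carcinoma epithelium summed to 2885.0 to 2924.6 CPM in parental cells and to 2893.8 to 3311.1 in gs2_B4. Markers of fibroblasts, endothelium, lymphocytes and adipocytes were near 0 in both groups, with summed levels of at most 4.42 CPM in parental cells and 4.6 in gs2_B4. In bulk RNA, fewer cells of a type and less RNA per cell cannot be told apart.

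The targeted transcript was measured first. Dnm1l (GRCm38, chr16:16312230-16358959) stood at 220.0, 217.0 and 225.7 CPM in the parental libraries and at 42.6, 41.2 and 40.4 CPM in gs2_B4. The groups lay far apart, with a log2 fold change of -2.42 ± 0.05 (n = 3 per group, edgeR adjusted p = 1.7e-17). A value after ± is the SE from the fit, whose spread was estimated over all 21 libraries of the arm. gs1B8 had 71.2, 67.3 and 68.4 CPM, so gs2_B4 held less Dnm1l mRNA than the second Drp1 clone as well (log2 -0.74, adjusted p = 9.7e-10). The Drp1 protein itself was not measured in these files.

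Of the genes that recruit Drp1 to mitochondria, 3 rose and none fell. Fis1, an outer membrane protein, was at 44.6, 45.5 and 52.5 CPM in parental cells and at 58.0, 59.7 and 60.4 in gs2_B4 (log2 0.32 ± 0.08, adjusted p = 0.0028). Mff, the main receptor in mammalian cells, was at 80.7, 84.4 and 91.4 CPM against 97.0, 99.4 and 98.0 (log2 0.20 ± 0.06, adjusted p = 0.0058). Mief1, which encodes MiD51, was at 26.6, 27.4 and 25.1 CPM against 33.9, 32.9 and 34.1 (log2 0.35 ± 0.08, adjusted p = 0.0012). In these 3 genes every gs2_B4 library was above every parental one, although the changes were small beside that of Dnm1l. Here and below, the share of all tested genes without overlap between the groups is not given, so a lack of overlap does not set a gene apart from the rest. Of all tested genes 50.3% were called. Mief2, which encodes MiD49, had a log2 fold change of -0.31 ± 0.13 and missed the threshold (adjusted p = 0.058). Among regulators, Marchf5 fell from 138.4, 135.6 and 136.6 CPM to 79.8, 77.5 and 76.6 (log2 -0.81). It encodes a ubiquitin ligase of the outer membrane and lies on chromosome 19. Mtfp1, an inner membrane protein that acts in fission, rose by 0.75, and Pgam5, a mitochondrial phosphatase, by 0.20. Over the whole list, 6 of 16 tested fission genes rose and 4 fell, Dnm1l among them, and on the chromosomes other than 8, 19 and X, which are taken up below, 6 of 15 rose and 3 fell. Across all tested genes 24.1% rose and 26.3% fell, so the shares of the list, 37.5% and 25%, were of similar order.

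Of 18 tested fusion and cristae genes, 7 fell, 1 rose and 10 were not called. Mfn1, an outer membrane mitofusin, fell from 74.7, 77.7 and 78.2 CPM to 58.7, 61.8 and 59.3 (log2 -0.36 ± 0.04, adjusted p = 3.4e-07). Mfn2, its partner, fell from 65.1, 63.4 and 55.8 CPM to 54.4, 53.1 and 52.5 (log2 -0.20 ± 0.06, adjusted p = 0.0061). Opa1, the inner membrane fusion GTPase, fell from 157.7, 153.2 and 147.7 CPM to 131.6, 136.4 and 131.8 (log2 -0.20 ± 0.04, adjusted p = 0.0004). The groups did not overlap in any of these 3 genes. Oma1, the protease that cleaves Opa1 under stress, overlapped between the groups and was at a log2 of -0.01 (adjusted p = 0.94). The cristae junction genes Chchd6, Apoo and Apool fell by 0.58, 0.50 and 0.36, while Immt, the core subunit of that complex, rose by 0.12. The list median was -0.10 against 0.00 over all tested genes. Apoo and Apool lie on chromosome X, and of the 16 list members on other chromosomes than 8, 19 and X, 5 fell.

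**Figure D1:**
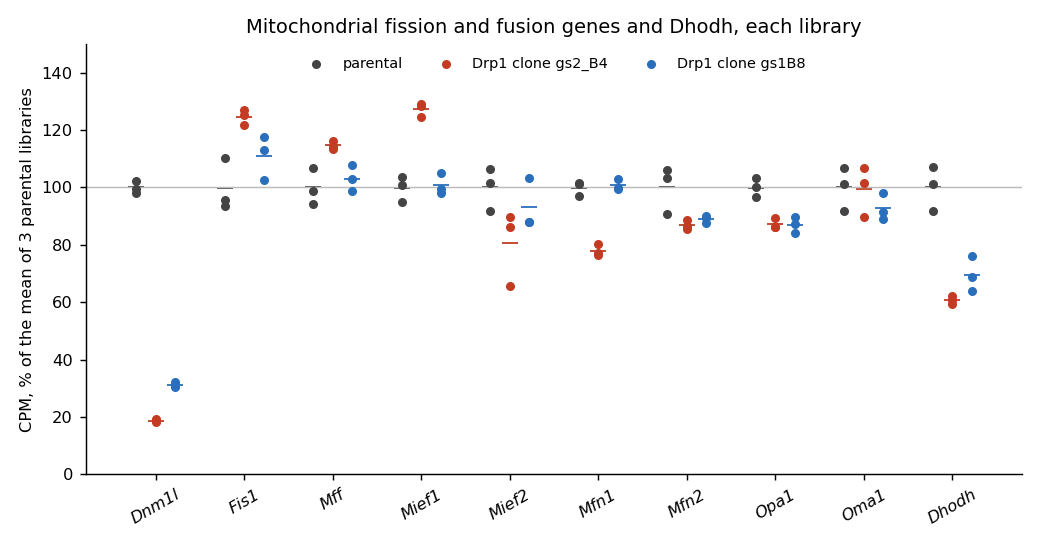
Level of 9 fission and fusion genes and Dhodh in each library of parental cells, gs2_B4 and gs1B8, as a percentage of the parental mean in CPM, with a line at each group mean. Dnm1l in gs2_B4 sits at 18.7% of the parental mean and Mfn1 at 78.0%, while the 3 gs2_B4 libraries of Fis1, Mff and Mief1 lie above all parental ones.

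Across all genes, 7017 of the 13940 tested passed an adjusted p of 0.05 in gs2_B4 against parental cells, which is 50.3%. Of these, 3357 were higher and 3660 lower. Most of the changes were small, with a median absolute log2 fold change of 0.444 among the called genes. Past 2-fold there were 601 higher and 574 lower genes, and past 4-fold 251 and 202. When the test asked for a change beyond 1.5-fold, 1257 genes were called, 543 higher and 714 lower.

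Among genes at 20 CPM or more in the group where they were higher, those with the largest rise held a claudin pair, a haemostatic adhesion receptor and an endocytic receptor. Cldn6, a claudin of embryonic epithelia, was at 0.0481, 0.321 and 0.414 CPM in parental cells and at 50.6, 50.4 and 46.5 in gs2_B4 (log2 7.50 ± 0.19, adjusted p = 1.5e-16). Its neighbour on chromosome 17, Cldn9, went from 0.337, 0.401 and 0.322 CPM to 35.1, 29.9 and 29.8 (log2 6.45 ± 0.23). gs1B8 had 1.15, 1.03 and 1.26 CPM of Cldn6, above parental cells (log2 2.08) and far below gs2_B4, and a mean of 0.198 CPM of Cldn9, whereas gs1_B11 had 23.3 CPM of Cldn6. Lrp1, a large endocytic receptor that clears proteases from the cell surface, rose from 24.0, 27.3 and 21.5 CPM to 189.2, 240.0 and 194.2 (log2 3.09 ± 0.11). Cp, which encodes the copper ferroxidase ceruloplasmin, rose from 3.51, 2.73 and 3.27 CPM to 38.4, 41.9 and 32.9. Selp, the adhesion receptor P-selectin, rose by 3.34 on the log2 scale, and Sema6a, a transmembrane semaphorin, by 3.96. Xlr, a member of a multicopy family on chromosome X, rose by 4.47, and Zfp985, a zinc finger gene, by 5.66. Reads of both may be shared with near-identical copies.

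Among the 12 genes with the largest fall at 20 CPM or more in parental cells, Crip1, a small LIM-domain protein, went from 70.7, 73.6 and 83.5 CPM to 0.716, 0.915 and 0.59 (log2 -6.68 ± 0.18, adjusted p = 2.6e-16). gs1B8 kept 30.4 CPM of it. Nexn, an actin-binding protein, fell from 22.9, 20.3 and 19.8 CPM to 0.942, 1.37 and 0.59 (log2 -4.45 ± 0.17). Ubqln2, a ubiquitin-binding shuttle factor encoded on chromosome X, fell by 4.32 on the log2 scale and Moxd1, a monooxygenase-like gene, fell by 2.97. Ass1, which makes argininosuccinate for arginine synthesis, fell from 38.9, 41.2 and 37.6 CPM to 11.6, 11.9 and 11.3, and was at a mean of 38.9 CPM in gs1B8. Lncenc1, a long noncoding RNA of embryonic stem cells, fell by 2.30 in gs2_B4 while gs1B8 stood at 183.7 CPM against 53.4 to 59.0 in parental cells.

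**Figure D2:**
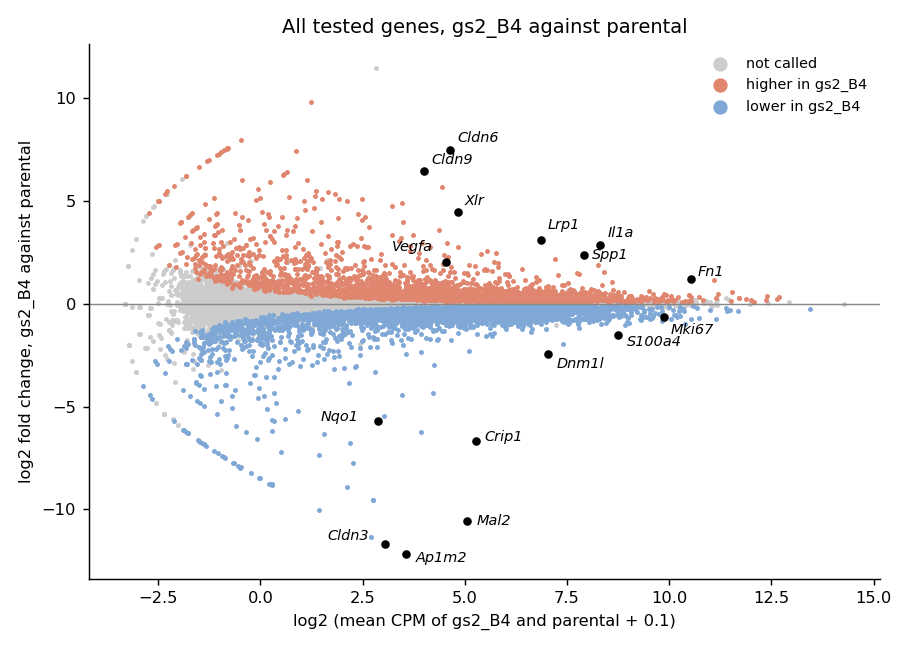
Log2 fold change of gs2_B4 against parental cells for the 13940 tested genes, plotted against the log2 of the mean CPM of both groups (with 0.1 added), with called genes coloured by direction and named genes in black. The 3357 higher and 3660 lower genes lie on both sides of 0, and 251 and 202 of them are past 4-fold.

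The lower genes were not spread evenly over the genome. On chromosome 19, 369 of 478 tested genes fell (77.2%) and 16 rose, with a median log2 fold change of -0.58, which corresponds to 66.7% of the parental level. On chromosome 8, 546 of 735 fell (74.3%) with a median of -0.57, or 67.2% of the parental level. On chromosome X, 281 of 421 fell (66.7%) with a median of -0.50, or 70.6%. These chromosomes hold 11.7% of the tested genes, but 1196 of the 3660 lower calls (32.7%) and 71 of the 3357 higher ones (2.11%). On the other chromosomes 3286 of 12306 tested genes rose (26.7%) and 2464 fell, and the median of the tested genes there was 0.04. The shift was present in every stretch of these chromosomes that held enough genes to be read. In stretches of 10 Mb with at least 20 tested genes, medians ran from -0.65 to -0.41 over 12 stretches of chromosome 8, from -0.70 to -0.50 over 6 of chromosome 19 and from -0.60 to -0.35 over 10 of chromosome X. Chromosome 9 was different, with 1 stretch at -0.53 (30 to 40 Mb) while the others lay between -0.17 and 0.22. Chromosome 14 was shifted upward, with a median of 0.26 and 55.0% of 500 genes higher, and chromosomes 2 and 3 had medians of -0.19 and -0.16. In the second Drp1 clone the medians against parental cells were -0.12, -0.36 and -0.23 for chromosomes 19, 8 and X. Tested directly against gs1B8, gs2_B4 had medians of -0.46 on chromosome 19, -0.20 on 8 and -0.28 on X. Against gs1_B11 the medians were -0.50 on chromosome 19, -0.29 on 8 and 0.19 on X, so X stood lower in gs1_B11 than in gs2_B4. DNA copy number was not measured in these files, and its part in these shifts was not tested.

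**Figure D3:**
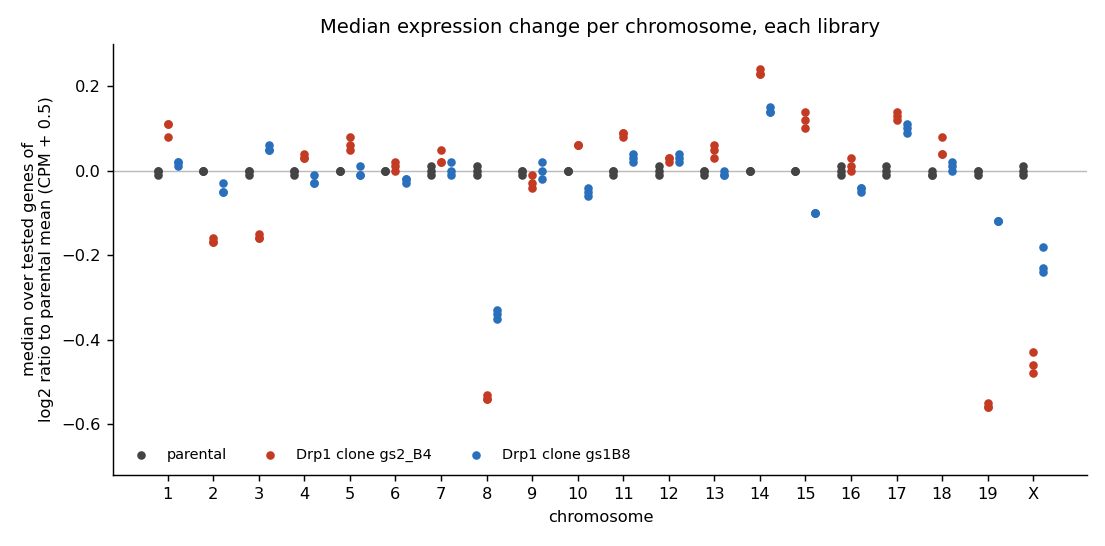
Median over the tested genes of each chromosome of the log2 ratio to the parental mean (CPM with 0.5 added), 1 point for each library of parental cells, gs2_B4 and gs1B8. All 3 gs2_B4 libraries lie lowest on chromosomes 19, 8 and X, where the fitted medians are -0.58, -0.57 and -0.50, and the parental libraries lie near 0.

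Because of this pattern, the counts of the lists that have members on chromosomes 8, 19 and X are given here for the other chromosomes as well. The background for those counts is the 12306 tested genes of the other chromosomes, of which 3286 rose and 2464 fell. Of 13 mRNAs encoded by mitochondrial DNA, 7 rose and none fell, with a list median of 0.30. mt-Nd1, a subunit of complex I, rose from 4809.3, 4732.7 and 4558.0 CPM to 6397.0, 6114.8 and 5757.1 (log2 0.37 ± 0.05, adjusted p = 1.7e-06). mt-Nd2 rose by 0.55, mt-Nd4 by 0.46 and mt-Nd4l by 0.44, and the groups did not overlap in mt-Nd1. mt-Co3, a subunit of complex IV, spread widely within both groups, at 100.3, 102.2 and 397.8 CPM in the parental libraries and 52.1, 138.9 and 106.9 CPM in gs2_B4, and was not called. None of the 13 was called beyond 1.5-fold. Nuclear genes of the respiratory chain were mostly not called. Of 37 complex I subunit genes 12 fell and 2 rose, and with chromosomes 8, 19 and X left aside 5 of 30 fell. Of 39 genes of complexes II to V 9 fell and 2 rose, and 6 of 36 fell on the other chromosomes. Ndufv1, the flavin subunit of complex I on chromosome 19, went from 70.6, 79.1 and 78.7 CPM to 45.8, 41.8 and 46.0 (log2 -0.77). Cox4i1, a complex IV subunit on chromosome 8, fell by 0.62, and Cox8a on chromosome 19 by 0.79. Among 14 mitochondrial chaperone and protease genes 4 rose and 3 fell (4 and 2 of 13 on the other chromosomes), with Lonp1, a matrix protease, at a log2 of 0.29 and Hspa9, the matrix Hsp70, at 0.19. Of 17 genes of mitochondrial DNA upkeep and biogenesis 3 rose and 4 fell (3 and 1 of 14 on the other chromosomes). Twnk, the helicase of mitochondrial DNA replication, fell by 0.53, and Tfb2m, a mitochondrial transcription factor, rose by 0.19. Of 20 peroxisome genes 7 rose and 5 fell (7 and 4 of 19 on the other chromosomes), with Pex7 at 0.42, Pex5 at 0.25 and Acbd5 at -0.37. Over all tested genes 24.1% rose and 26.3% fell. The lower shares of these nuclear lists, from 21.4% for chaperones and proteases to 32.4% for complex I, were of similar order. Their higher shares ran from 5.13% for complexes II to V to 35.0% for peroxisomes, with chaperones and proteases at 28.6%.

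In the list of mitophagy, autophagy and lysosome genes, 10 of 33 rose and 8 fell, and of the 26 on other chromosomes than 8, 19 and X 10 rose and 1 fell. Hexa, a lysosomal hexosaminidase subunit, rose from 3.61, 3.29 and 4.05 CPM to 21.3, 22 and 21.4 (log2 2.57 ± 0.14). Its mean was 0.0254 CPM in gs1B8. Ctsl and Ctsb, lysosomal cathepsins, rose by 0.44 and 0.28, and the autophagy receptor Optn rose by 0.55. Lamp1, a major protein of the lysosomal membrane encoded on chromosome 8, fell from 680.7, 676.9 and 690.2 CPM to 345.8, 363.1 and 368.9 (log2 -0.93). The mitophagy receptor Fundc1, on chromosome X, fell by 0.68. Pink1, the kinase that marks damaged mitochondria, was at a log2 of 0.06 and was not called.

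Most genes of mitosis fell. Of 40 tested, 32 fell (80.0%) and 1 rose, with a median of -0.31. The gene that rose was Bub3, a checkpoint protein, at 0.11, and its call was lost on leaving out any gs2_B4 library or parental replicate 1 or 2. Outside chromosomes 8, 19 and X, 28 of 36 fell with a median of -0.29. Nusap1, which bundles spindle microtubules, went from 115.3, 116.2 and 118.6 CPM to 55.7, 57.1 and 53.4 (log2 -1.08 ± 0.05, adjusted p = 1.3e-12). Ccna2, cyclin A2, went from 454.3, 456.6 and 451.4 CPM to 297.7, 287.3 and 288.2 (log2 -0.64 ± 0.03). Mki67, the proliferation antigen Ki-67, went from 1222.1, 1140.7 and 1068.9 CPM to 708.6, 732.2 and 732.8 (log2 -0.66 ± 0.07). No library of one group reached the other in these 3 genes. Cdc25b, a phosphatase that activates cyclin-dependent kinases, fell by 0.80 and the mitotic kinase Plk1 by 0.33. Top2a, a topoisomerase of dividing cells, stood at a log2 of -0.02 and Birc5, survivin, at -0.11, and neither was called. Against the second Drp1 clone 27 of the 40 were lower, none was higher and the median was -0.26. Over all tested genes 2911 of 13940 were lower there and 2801 higher. Both comparisons use the same gs2_B4 libraries, so they are not independent. The changes against parental cells were small, and with the test for a change beyond 1.5-fold 6 of the 40 were called lower.

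Of 41 tested DNA replication genes, 20 fell and 6 rose, and on the other chromosomes 11 of 32 fell and 6 rose, with a median of -0.04. E2f1, the transcription factor that drives entry into S phase, fell from 37.3, 37.1 and 36.1 CPM to 20.2, 20.4 and 21.5 (log2 -0.83 ± 0.06) and lies on chromosome 2. Mcm5 and the GINS genes Gins2 and Gins3, parts of the replicative helicase, lie on chromosome 8 and fell by 0.94, 1.05 and 1.01. Cdc6, which loads that helicase, rose by 0.39, and Mcm3 was at a log2 of 0.00. Cdkn1a, the p53-induced inhibitor p21, rose from a mean of 14.3 CPM to 29.8. In the p53 and apoptosis list 12 of 29 genes rose and 7 fell (11 and 4 of 25 on the other chromosomes), with Gadd45a up by 1.05 and Trp53 up by 0.38.

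Epithelial junction and polarity genes contained the clearest losses of a transcript. Ap1m2, the medium chain of an epithelial sorting adaptor, was at 25.9, 21.6 and 23 CPM in parental cells and had 0 counts in all 3 gs2_B4 libraries. With 3 counts over the group taken as the floor, it was at least 604.8-fold lower. Cldn3, a tight junction claudin, was at 14.7, 17.6 and 16.8 CPM and also had 0 counts (at least 425.1-fold lower). Cldn7, another claudin, was at 13.1, 12.8 and 12.6 CPM and had 0 counts (at least 332.6-fold lower). Mal2, a membrane protein of apical sorting, went from 75.1, 66.5 and 58.5 CPM to 0.0377, 0.0416 and 0.0369. Its ratio was 1725 with a 95% counting interval of 590 to 8370, and floors and intervals cover counting error only. These losses were not particular to gs2_B4. Ap1m2, Cldn3 and Cldn7 had 0 counts in gs1B8 and in gs1_B11 too, and Mal2 was at 0.0264 CPM in gs1B8 and 6.36 in gs1_B11.

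Other junction genes fell in part. Rab25, a recycling GTPase of epithelia, went from a mean of 30.6 CPM to 9.46 (log2 -1.69), the apical protein Prom2 fell by 1.65, and the desmosomal genes Pkp1 and Dsp fell by 1.12 and 0.63. Cdh1, E-cadherin, went from 408.5, 386.1 and 339.8 CPM to 223.8, 233.2 and 202.1 (log2 -0.78 ± 0.08, adjusted p = 4e-08). It lies on chromosome 8, as does Esrp2, an epithelial splicing factor that fell by 1.14. Against these, Epcam, the epithelial adhesion molecule, rose from 184.0, 175.3 and 190.9 CPM to 244.8, 231.2 and 222.6 (log2 0.34), Ctnnb1, beta-catenin, rose by 0.62, and Tjp1, the scaffold ZO-1, by 0.27. Over the list, 27 of 52 tested genes fell and 15 rose (median -0.20), and on the other chromosomes 23 of 46 fell and 14 rose (median -0.19). Keratins did not move together. Krt18 rose by 0.29, Krt17 by 3.03 from a low level, and Krt19 fell from 136.7, 135.7 and 144.5 CPM to 55.9, 63.4 and 59.9 (log2 -1.22). Krt7 was called higher by 0.15 (adjusted p = 0.043), a call lost on leaving out gs2_B4 replicate 1 (adjusted p = 0.11) or 2 (0.12), or parental replicate 1 (0.16) or 2 (0.09), in the same edgeR test. Beyond 1.5-fold, 10 of the 52 junction genes were called lower and 2 higher.

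Promoters of 3 of these genes, picked from a larger set that was searched, are printed as examples of upstream sequence. The motif searched was CACCTG on either strand, which reads CAGGTG on the other strand. It is the E-box that Snail and Zeb repressors of epithelial genes are known to bind. It is in capitals, and the sequences run 5′ to 3′ on the gene's strand, cut back to bases that no annotated exon covers. Positions count back from the annotated start, and the last base shown lies 5 bases before it for Ap1m2, 22 for Rab25 and 1 for Cldn3. They come from RefSeq on GRCm38.p6 and cover chr9:21312338-21312583 (minus strand) for Ap1m2, chr3:88548301-88548529 (minus strand) for Rab25 and chr5:134985964-134986213 (plus strand) for Cldn3.
Ap1m2: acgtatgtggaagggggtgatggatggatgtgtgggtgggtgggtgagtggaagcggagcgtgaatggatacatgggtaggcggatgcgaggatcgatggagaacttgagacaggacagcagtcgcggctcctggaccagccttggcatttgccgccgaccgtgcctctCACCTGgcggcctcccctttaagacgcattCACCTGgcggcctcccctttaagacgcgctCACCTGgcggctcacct
Rab25: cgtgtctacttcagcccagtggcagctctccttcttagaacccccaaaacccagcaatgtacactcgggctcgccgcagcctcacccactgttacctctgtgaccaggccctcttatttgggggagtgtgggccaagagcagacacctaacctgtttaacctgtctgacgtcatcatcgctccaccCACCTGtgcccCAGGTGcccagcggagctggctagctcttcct
Cldn3: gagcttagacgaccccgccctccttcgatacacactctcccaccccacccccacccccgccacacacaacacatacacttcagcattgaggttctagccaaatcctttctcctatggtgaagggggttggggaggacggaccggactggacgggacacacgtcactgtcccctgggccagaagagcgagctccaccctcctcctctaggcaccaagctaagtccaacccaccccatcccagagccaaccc
The 250 bases before the annotated start of Ap1m2 held 4 matches, the first at -81 and the last at -9, and 3 of them lie in the stretch shown. Rab25 held 2, at -64 and -53, and Cldn3 none. Of the other genes searched singly, Bspry, Prom2, Crip1, Eomes and Lcn2 held none. Cldn6 and Fstl3 held 1 each, and the 2 windows of Cldn7 held 0 and 2. Of 32851 such windows in the table, 17.2% held at least 1 match, 2.06% at least 2 and 0.0426% at least 4. Of the named genes that were lost in gs2_B4, those with at most 3 counts over its 3 libraries, 45 of 60 had an entry, with 59 windows, of which 25.4% held 1 or more matches and 10.2% 2 or more. Of the genes gained in gs2_B4 by the same measure 32 of 38 had an entry, with 42 windows, of which 19% held 1 or more and none held 2. A match is a stretch of letters and not evidence of binding. Among the Snail and Zeb factors, Zeb2 rose from a mean of 12 CPM to 24.3. Zeb1 stood at 0.0428 and 0.182 CPM and Snai1 at 5.16 and 6.45, and neither was called. Twist1, which belongs to neither family, rose from a mean of 7.49 CPM to 16.2.

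More transcripts were lost than gained, among named genes at 1 CPM or more in the group that had them. By the same measure 26 were lost and 10 gained. Eomes, a T-box transcription factor, went from 11.4, 13.1 and 15 CPM to 0.0377, 0 and 0, while gs1B8 kept 8.29 CPM. Fstl3, a secreted inhibitor of activin, went from 9.23, 10.3 and 8.56 CPM to 0, 0.125 and 0, and gs1B8 kept 8.26 CPM. On the side of gain, Lcn2, the siderophore-binding protein lipocalin 2, had 0 counts in parental cells and stood at 3.99, 4.28 and 5.20 CPM in gs2_B4, at least 101.3-fold higher. Elovl4, which elongates very long fatty acids, had a ratio of 232.6 (95% counting interval 41.4 to 9220), and Prdm1, a transcriptional repressor, of 99.0 (27.1 to 822).

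More genes of secreted inflammatory signals rose than fell. In the list of cytokines and NF-kappaB targets 16 of 27 rose and 5 fell, with a median of 0.63, and on the other chromosomes 15 of 24 rose and 3 fell (median 0.75). Il1a, an alarmin cytokine, stood at 50.8, 77.7 and 98.6 CPM in parental cells and at 403.9, 542.6 and 724.9 in gs2_B4 (log2 2.88 ± 0.40, adjusted p = 4.7e-06). Cxcl1, a neutrophil chemokine, stood at 41.1, 48.8 and 67.5 CPM against 168.8, 203.7 and 351.7 (log2 2.20 ± 0.34, adjusted p = 1.6e-05). Cxcl5, another such chemokine, stood at 123.9, 125.6 and 138.9 CPM against 366.2, 416.8 and 661.2 (log2 1.90 ± 0.25). The libraries of each group were spread widely in these genes, in the same order by serial run in parental cells and gs2_B4, but the groups did not overlap. Csf3, the granulocyte growth factor, rose by 1.99, Ptgs2, cyclooxygenase 2, by 1.14, and the inhibitors Nfkbia and Nfkbie by 0.77 and 1.33. Tslp, an epithelial cytokine, fell from 219.0, 219.3 and 284.8 CPM to 120.3, 143.7 and 108.8 (log2 -0.96), Csf1 fell by 0.61 and Ccl2 by 1.30. Against gs1B8 the list had 15 higher and 6 lower genes, with Il1a higher by 3.37 on the log2 scale. Macrophage and myeloid markers summed to 15.1 to 17 CPM in parental cells and 25 to 28.4 in gs2_B4. Of the 7 markers, Adgre1 was at 0 in all 6 libraries and Ptprc, Itgam and Lyz2 were below 1 CPM, while Cd14 and Cd68 rose by 1.32 and 0.92 and Csf1r fell by 2.47.

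Of 21 genes of MHC class I presentation 11 rose, 9 were not called and 1 fell, Calr on chromosome 8, with a median of 0.16. On the other chromosomes 11 of 18 rose and none fell, with a median of 0.38. Psme1, a proteasome activator subunit, rose from 43.9, 41.3 and 42.5 CPM to 85.6, 94.9 and 84.7 (log2 1.05 ± 0.10). The class I heavy chains H2-K1 and H2-D1 rose by 0.58 and 0.43, and their reads may be split with related H2 genes. B2m, the shared light chain, was at a log2 of -0.06 and was not called. Of 43 interferon-stimulated genes 11 rose (25.6%) and 7 fell (16.3%), with a median of 0.03. Over all tested genes the shares were 24.1% and 26.3%. On the other chromosomes 10 of 38 rose and 6 fell, against 3286 and 2464 of all 12306 genes tested there. The guanylate-binding protein Gbp2 rose by 2.14 and the antiviral gene Rsad2 by 1.95, while Ifit2, on chromosome 19, fell by 1.71.

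Integrin and focal adhesion genes rose more often than they fell. Of 33 tested, 19 rose (57.6%) and 6 fell, with a median of 0.32, and on the other chromosomes 19 of 31 rose and 4 fell. Itgb2, the beta chain of leukocyte integrins, rose from 18.4, 14.3 and 17 CPM to 64.4, 55.2 and 57.0 (log2 1.83 ± 0.10, adjusted p = 2e-11). Fermt2, the integrin activator kindlin 2, rose from 66.5, 71.1 and 69.8 CPM to 139.8, 153.3 and 142.8 (log2 1.07 ± 0.06). Itgb7 rose from a mean of 0.301 CPM to 10.6, and Itgb3 from 0.787 to 6.42. In each of these genes the gs2_B4 libraries lay above the parental ones. Pxn, the adhesion scaffold paxillin, rose by 0.63 and Zyx, zyxin, by 0.52. The most abundant beta chain went down. Itgb1, on chromosome 8, was at 2093.9, 2131.1 and 2108.7 CPM in parental cells and at 1266.3, 1340.6 and 1302.9 in gs2_B4 (log2 -0.70 ± 0.04). Against gs1B8 11 of the 33 were higher and 8 lower, with a median of 0.02. Beyond 1.5-fold, 8 were called higher against parental cells and 1 lower.

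Matrix genes changed in both directions. Of 30 mesenchymal and matrix genes 13 rose and 7 fell (median 0.23), and on the other chromosomes 13 of 28 rose and 5 fell. Vim, the intermediate filament vimentin, rose from 244.2, 252.3 and 252.4 CPM to 550.9, 519.9 and 509.6 (log2 1.08 ± 0.07, adjusted p = 1.2e-10), and gs1B8 stood at a like level of 544.6 CPM. Fn1, fibronectin, rose from 894.6, 971.6 and 826.9 CPM to 2074.1, 2198.5 and 1884.0 (log2 1.19 ± 0.09). Spp1, the secreted phosphoprotein osteopontin, rose from 75.8, 70.2 and 91.3 CPM to 414.4, 398.2 and 406.6 (log2 2.36 ± 0.13). gs1B8 had 59.0 CPM of it, so the rise of Spp1 was not shared by the second Drp1 clone. The basement membrane collagens Col4a1 and Col4a2, a gene pair on chromosome 8, fell by 0.93 and 1.20, and Postn, periostin, fell by 1.81. Of 23 matrix proteases and inhibitors 11 rose and 6 fell (median 0.30), and on the other chromosomes 10 of 19 rose and 4 fell. Mmp14, a membrane-bound matrix metalloproteinase, rose from 101.1, 98.9 and 94.9 CPM to 159.7, 164.3 and 166.4 (log2 0.73 ± 0.05). Mmp9, Mmp3 and Mmp13, secreted metalloproteinases, rose by 1.40, 1.54 and 2.83, and Plau, urokinase, by 0.89. Adam8, a membrane-bound metalloproteinase, went down from 26.9, 25.4 and 23 CPM to 4.67, 4.95 and 5.12 (log2 -2.35 ± 0.12), with gs1B8 at a mean of 27.0 CPM.

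The S100 genes, calcium-binding proteins linked to cell movement, fell almost throughout, with 7 of 8 tested genes lower, none higher and a median of -0.95. All 8 lie on chromosome 3, whose own median was -0.16. S100a4 went from 613.6, 580.3 and 723.0 CPM to 233.1, 241.8 and 199.8 (log2 -1.51 ± 0.12, adjusted p = 1.9e-09). S100a6 went from 1680.3, 1687.4 and 1970.7 CPM to 907.6, 935.0 and 889.0 (log2 -0.97). The exception was S100a1, at a log2 of 0.11 and not called. gs1B8 kept S100a4 at 676.8 CPM, and against it the list had 7 lower genes and 1 higher. gs1_B11 had 273.9 CPM of S100a4, and gs2_B4 was not called against it (log2 -0.28, adjusted p = 0.057).

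Growth factor and contractility genes followed. In the TGF-beta, activin and BMP list 15 of 30 rose and 3 fell, with a median of 0.26, and on the other chromosomes 15 of 29 rose and 2 fell. Tgfb1, a ligand, rose by 0.82, the ligand Bmp7 rose from 5.87, 5.33 and 4.83 CPM to 15.4, 16 and 15.7, the receptor gene Acvr1 rose by 0.50, and the signal transducer Smad3 by 0.58. Tgfbr3, the co-receptor betaglycan, rose from 0.625, 0.601 and 0.46 CPM to 5.88, 4.53 and 6.27, whereas gs1B8 and gs1_B11 had 0 counts. In the Hippo and YAP list 12 of 22 rose and 3 fell (12 and 2 of 21 on the other chromosomes), with Ccn2, a secreted YAP target, up by 0.62 and Amotl2 up from 76.2, 76.7 and 68.5 CPM to 117.7, 117.3 and 116.4. Ankrd1, a target on chromosome 19, fell by 0.71. Vegfa, the angiogenic growth factor, rose from 9.04, 8.58 and 9.58 CPM to 34.0, 37.8 and 40.6 (log2 2.05 ± 0.13). Pdgfc rose by 5.12 from a mean of 0.15 CPM, Pdgfb by 0.99 and Areg, an EGF receptor ligand, by 1.02, while the receptor gene Met fell by 0.52. Of 33 actin and GTPase genes 10 rose and 5 fell, and on the other chromosomes 10 of 28 rose and 1 fell. Lcp1, the actin bundler L-plastin, rose from 43.0, 39.6 and 36.1 CPM to 125.9, 135.6 and 122.3 (log2 1.69 ± 0.07). Cfl1, cofilin on chromosome 19, fell from 1315.8, 1297.1 and 1364.0 CPM to 935.4, 922.7 and 878.4 (log2 -0.54).

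Stress responses were uneven. Of 24 tested genes in the unfolded protein response of the endoplasmic reticulum, 15 rose (62.5%) and 4 fell, with a median of 0.23, and on the other chromosomes 15 of 21 rose and 2 fell. Hyou1, a chaperone of that compartment, rose from 144.4, 164.3 and 137.3 CPM to 223.3, 223.7 and 216.4 (log2 0.57 ± 0.07), Hspa5, its main Hsp70, by 0.26 and the transcription factor Xbp1 by 0.43. None of the 24 was called beyond 1.5-fold. Of 27 ATF4 and integrated stress response genes 8 rose and 5 fell, and on the other chromosomes 8 of 23 rose and 2 fell, with Atf4 itself up by 0.28, Cebpb up by 1.23 and Slc7a5, an amino acid carrier on chromosome 8, down by 0.88. Of 29 NRF2, antioxidant and iron genes 14 fell and 3 rose, and on the other chromosomes 8 of 23 fell. Nqo1, a quinone reductase on chromosome 8, fell from 15.5, 15.2 and 11.8 CPM to 0.414, 0.291 and 0.111 (log2 -5.69 ± 0.22). Nox4, an NADPH oxidase on chromosome 7, fell from 17.1, 16.4 and 13.5 CPM to 0.414, 0.374 and 0.258 (log2 -5.47 ± 0.19). gs1B8 kept 8.88 CPM of Nqo1 but 0.545 of Nox4. Of 16 hypoxia genes 9 rose and 5 fell, and on the other chromosomes 9 of 13 rose and 2 fell. The collagen hydroxylase P4ha2 rose by 2.24, and Car9, a carbonic anhydrase of hypoxic tumour cells, fell from 6.35, 5.41 and 5.20 CPM to 0.151, 0.0416 and 0.

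In glycolysis 5 of 22 genes rose and 5 fell (22.7% each, near the shares over all tested genes). On the other chromosomes 5 of 20 rose and 3 fell. Hk2, the first enzyme of the pathway, rose from 73.5, 73.8 and 73.6 CPM to 123.5, 119.6 and 129.1 (log2 0.75 ± 0.07), and the glucose carrier Slc2a1 rose by 0.55. Pgk1 on chromosome X and Pgam1 on chromosome 19 fell by 0.82 and 0.72, while Ldha, at 0.08, was not called. Of 35 genes of the TCA cycle and fatty acid oxidation 8 rose and 11 fell, and on the other chromosomes 8 of 31 rose and 7 fell. Pcx, pyruvate carboxylase on chromosome 19, fell from 3.32, 3.33 and 3.22 CPM to 0.791, 0.707 and 0.922 (log2 -2.02 ± 0.24). Pdha1, a pyruvate dehydrogenase subunit on chromosome X, fell by 0.81, and Acadm, an acyl-CoA dehydrogenase on chromosome 3, fell from 56.4, 53.8 and 53.7 CPM to 39.4, 37.9 and 41.6. In pyrimidine synthesis and salvage 11 of 24 fell and 5 rose, and on the other chromosomes 7 of 20 fell and 5 rose. Dhodh, the mitochondrial enzyme of pyrimidine synthesis and the target of leflunomide, is on chromosome 8 and went from 19.6, 18.5 and 16.8 CPM to 11.4, 11.1 and 10.9 (log2 -0.72 ± 0.07, adjusted p = 1.7e-08). gs2_B4 was lower than gs1B8 by a log2 of -0.19 (adjusted p = 0.027). Dut and Tk1 fell by 0.64 and 0.38, Umps, which follows Dhodh in the pathway, rose by 0.21, and the salvage kinase gene Uck2 rose by 0.44. Of 24 serine, one-carbon and purine genes 14 fell and 7 rose, and on the other chromosomes 9 of 19 fell and 7 rose. Phgdh and Psat1, the first steps of serine synthesis, fell by 0.41 and 0.78, and Shmt2, a mitochondrial one-carbon enzyme, rose by 0.36. Of 32 cholesterol and fatty acid genes 14 fell and 5 rose, and on the other chromosomes 7 of 24 fell and 5 rose. Scd1, a desaturase on chromosome 19, fell from 98.9, 92.4 and 98.9 CPM to 56.3, 49.0 and 51.2 (log2 -0.89).

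**Figure D4:**
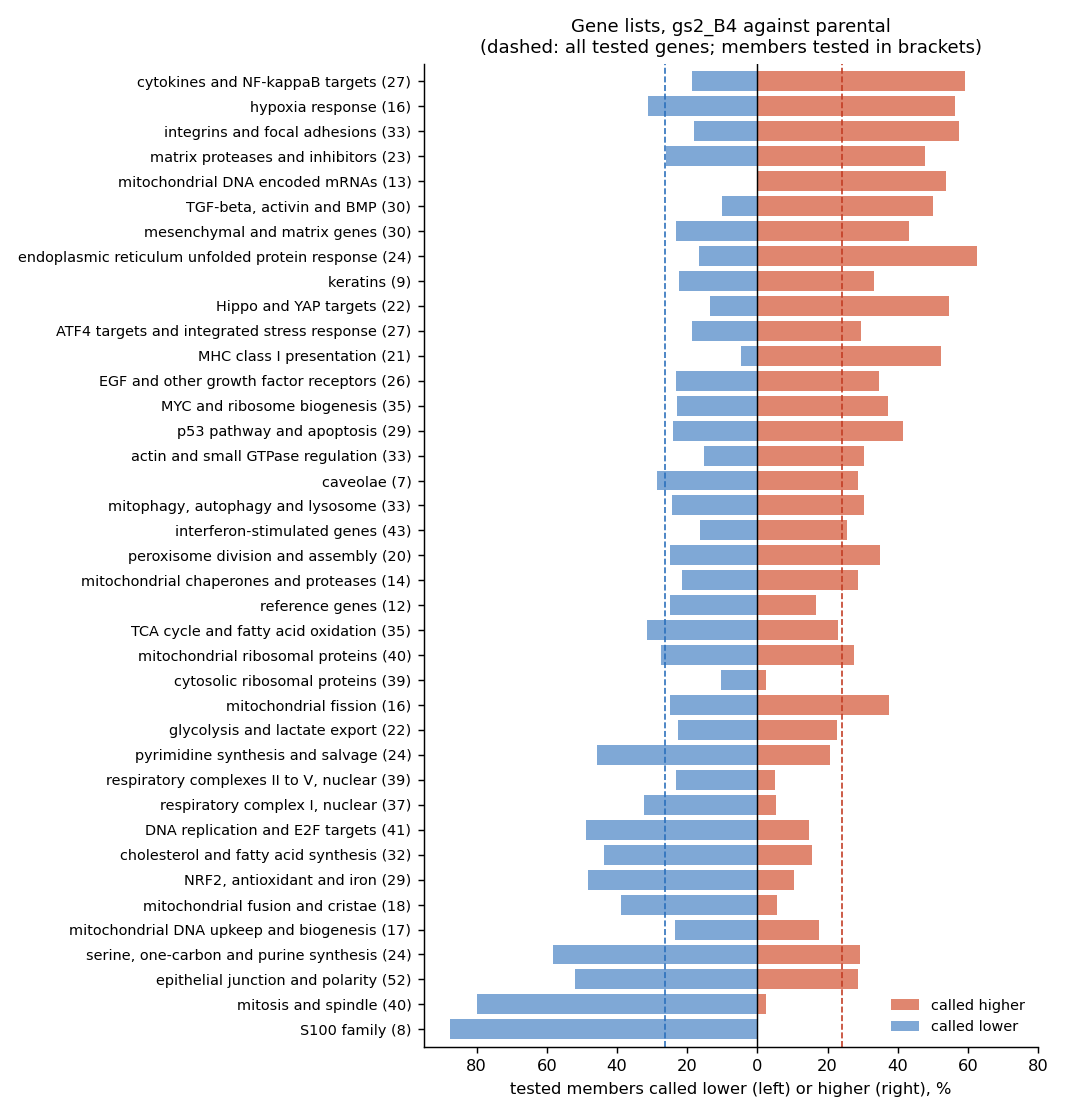
Bars give the percentage of the tested members of each gene list called lower (left) or higher (right) in gs2_B4 against parental cells, ordered by list median, with the shares over all tested genes (26.3% and 24.1%) as dashed lines. Mitosis genes stand out with 80.0% lower and 2.5% higher, S100 genes with 87.5% lower, and the unfolded protein response with 62.5% higher.

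Tested directly against the second Drp1 clone, gs2_B4 differed in 5712 of 13940 genes (41.0%), with 2801 higher and 2911 lower, and past 4-fold in 274 and 95. Against the Fis1 clone gs1_B11 it differed in 5533 genes (39.7%), with 2842 higher and 2691 lower, and past 4-fold in 290 and 109. Of the 3357 genes higher in gs2_B4 than in parental cells, 1982 were also higher than in gs1B8, 1319 were not called between the clones and 56 were lower than in gs1B8. Of the 3660 lower genes, 2256 were also lower than in gs1B8, 1311 were not called and 93 were higher. Each pair of counts shares the gs2_B4 libraries. Mfn1 was lower than in gs1B8 by a log2 of -0.37 (adjusted p = 4.4e-07), whereas Opa1 stood at 0.00 (adjusted p = 0.96) and Mfn2 at -0.04 (adjusted p = 0.67) between the Drp1 clones. Vim stood at -0.05 (adjusted p = 0.62) and Nfkbie at -0.09 (adjusted p = 0.45). Crip1 and S100a4 were lower than in gs1B8 by -5.36 and -1.59 on the log2 scale, and Itgb2, Il1a and Spp1 were higher by 3.40, 3.37 and 2.79. The 2 Drp1 clones thus differed in these last genes, but Il1a and Crip1 were named in part because they differed between the clones. Against gs1B8, 11 integrin and focal adhesion genes of 33 were higher and 8 lower. Of 30 mesenchymal and matrix genes 10 were higher and 9 lower, and of 27 cytokine and NF-kappaB genes 15 and 6. The libraries differ in clone as well as in remaining Dnm1l mRNA.

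**Figure D5:**
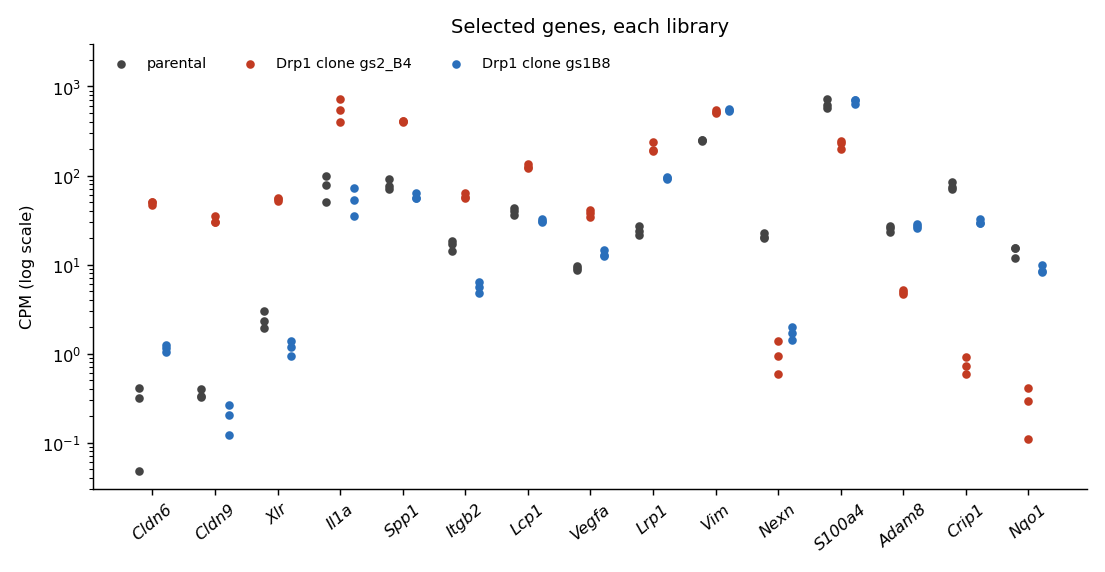
Levels of 15 selected genes in each library of parental cells, gs2_B4 and gs1B8, on a log axis in CPM. Il1a, Spp1 and Itgb2 are higher in gs2_B4 than in both other groups, while Vim is at a like level in both Drp1 clones.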

How the data were processed

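Polyadenylated RNA of 4T1 cells was extracted with TRIzol Plus and DNase and made into libraries with a KAPA RNA HyperPrep kit, per the labels' protocols. Reads were trimmed with Trimmomatic 0.35 and quantified with RSEM on GRCm38 (mm10), per the submitters' processing notes. For the RSEM version, its aligner and the annotation release the entry is "not given in the sources used here". RSEM expected counts per gene were deposited by the authors, with no scaling between libraries. Of these values 91.4% were whole numbers, and all were rounded before fitting. The 6 columns of the drug arm were not used.

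All 21 knockout-arm libraries entered 1 fit in edgeR 4.0.16 (R 4.3.3), with 1 coefficient per clone, filterByExpr, TMM scaling and the two-sided quasi-likelihood F test. Benjamini-Hochberg adjustment ran over all 13940 tested genes, with a threshold of 0.05. "Called", "rose" and "fell" mean that a gene passed it. The SE of a log2 fold change was its absolute value divided by the square root of F. Depth was 20715428 to 31295937 counts per library. Genes with 0 counts in a group were given 3 counts over the group as a floor, and ratios with 1 to 3 counts carry 95% counting intervals.

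The members and the 45 gene lists were chosen with earlier results of these data known. A rule named the 12 called genes of each direction that changed most at 20 CPM or more. It added up to 8 per direction also called against gs1B8 and up to 4 called members of each list by smallest p. It also took up to 8 per direction that were lost or gained, and a fixed set of fission and fusion genes. Last came 3 genes of a stretch tied for the largest shift. That was chromosome 14 from 40 to 50 Mb (median 0.70), tied with chromosome 19 from 30 to 40 Mb (-0.70). Other list members, and the chromosomes set aside, were named after their values were seen. Predicted genes were counted but not named. Lists are described by counts and medians, with no test of the list. Alternatives were DESeq2 1.42.0, its size factors, no low-count filter, limma 3.58.1 voom, a 1.5-fold minimum, the 6 libraries alone, a replicate block, leaving out abundant RNA, and leaving out each library. Promoter windows came from RefSeq, cut back to bases that no annotated exon covers. Figures were drawn in Python 3.11.15.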

Additional observations from a re-analysis of the deposited data

Results flagged for a closer look

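In 12 named genes the changes of the 2 Drp1 clones against parental cells had opposite signs and were called. The direct test between the clones passed as well, which opposite calls against the same parental libraries make likely, so it adds no separate support. These genes were higher in gs2_B4 than in gs1B8 on the log2 scale by 7.09 for Zfp985, a zinc finger gene, 5.52 for Xlr, a multicopy gene of chromosome X, and 3.40 for Itgb2, a leukocyte integrin chain. They were higher by 2.79 for Spp1, osteopontin, 2.04 for Lcp1, L-plastin, 1.58 for Cavin2, a caveolar protein, 0.61 for Epcam and 0.55 for Krt7. Hexa, a lysosomal hexosaminidase subunit, had 2 counts over the 3 gs1B8 libraries, and its fitted value of 9.42 depends on the prior count. Tgfbr3, betaglycan, had 0 counts in gs1B8, and its fitted value of 10.13 depends on the prior count and is no bound. Lncenc1, a noncoding RNA, was lower in gs2_B4, at -3.98, and so was Zfp518a, a zinc finger gene, at -10.09, where gs2_B4 had a single count over its 3 libraries and the fitted value again depends on the prior count. Genes were named from their behaviour in gs2_B4, some of them by its direct test against gs1B8, and no count over all genes was made by this measure.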

How the results depend on the processing

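The number of genes called against parental cells lay between 6319 and 7728, except under 2 alternatives. With a test for a change beyond 1.5-fold it was 1257 (543 higher, 714 lower), against gs1B8 692 (463 higher, 229 lower) and against gs1_B11 784 (515 higher, 269 lower), and 86 of the 198 other named genes lost their call. Leaving out 1 library gave 6319 to 6612 calls. Without genes on chromosomes 8, 19 and X, an alternative chosen after the data were seen, 5589 genes were called, 2910 higher and 2679 lower. DESeq2 gave 6841, no filter 6956, the 6 libraries alone 6806, and voom 7728.

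The serial runs of columns were not taken as pairs, since over all tested genes same-run libraries correlated in their deviations at 0.047, -0.0111 and 0.11. Single genes can still follow the runs: Il1a stood in the same order by run in parental cells, gs2_B4 and gs1B8, and Cxcl1 in parental cells and gs2_B4. With the replicate block 7417 genes were called, and all 198 named genes kept their call or lack of one.

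Median changes of chromosome 8 were -0.58 at 5 CPM or more and over 10 Mb stretches, -0.55 without abundant RNA, and -0.58 to -0.56 with 1 library left out. For chromosome 19 they were -0.60 at 5 CPM or more, -0.59 with the replicate block or voom, -0.57 with DESeq2, its size factors or no filter, -0.55 without abundant RNA, and -0.60 to -0.58 with 1 library left out. For X they were -0.53 at 5 CPM or more and -0.47 without abundant RNA. Dnm1l ranged from -2.44 to -2.38.

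Krt7 lost its call without gs2_B4 replicate 1 or 2, without parental replicate 1 or 2, and without the 3 chromosomes. Cavin2 lost it without gs2_B4 replicate 3 or parental replicate 1 or 2, and Ehd2 without gs2_B4 replicate 3. Mief2 gained a call with voom, without gs2_B4 replicate 3, without parental replicate 3, and without the 3 chromosomes. The causes were not tested. Of 78 counts of list members, 8 stayed within 1.5 times with the 1.5-fold minimum and 59 without the 3 chromosomes, and 67 to 77 under the other alternatives run on all lists.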

Other observations

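In a pair of small regions many adjacent genes were higher in gs2_B4. On chromosome 14, from 41 to 45 Mb, 26 of 27 tested genes rose, 24 of them past 4-fold, with a median log2 fold change of 3.79. The summed level of the genes past 4-fold was 18.2, 17.3 and 16.9 CPM in parental cells and 167.2, 170.7 and 164.6 CPM in gs2_B4. It was 12.2, 12.1 and 13.3 CPM in gs1B8 and 28.3, 34.9 and 32.8 CPM in gs1_B11. On chromosome 4, from 145 to 148 Mb, 21 of 37 tested genes rose and 4 fell, and 13 of 17 zinc finger genes there rose past 4-fold. Their region summed to 1.68, 1.64 and 1.38 CPM in parental cells over the genes past 4-fold, and to 64.2, 70.7 and 68.5 CPM in gs2_B4, against 0.738, 1.18 and 0.693 CPM in gs1B8. The regions were chosen after their values were seen, as runs of genes past 4-fold higher in gs2_B4. The sums run over those genes only, so their gap between parental cells and gs2_B4 was fixed by the choice. Both hold near-identical gene copies, so how reads were split among the copies is uncertain.

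Other gene groups moved little or both ways. Of 39 cytosolic ribosomal protein genes 1 rose and 4 fell, with a median of 0.00. Of 40 mitochondrial ribosomal protein genes 11 rose and 11 fell. Outside chromosomes 8, 19 and X the counts were 1 and 3 of 38, and 11 and 9 of 38. In the list of MYC and ribosome biogenesis genes 13 of 35 rose and 8 fell, with Myc itself up by 0.29, and on the chromosomes other than 8, 19 and X 13 of 29 rose and 2 fell. Of 7 caveolar genes 2 rose and 2 fell, with Cav2 down by 0.43 and Cavin1 up by 0.33. Of 12 genes often used as references for RNA levels, 2 rose and 3 fell (2 and 1 of 10 on the other chromosomes). Hprt and Pgk1, on chromosome X, fell by 0.69 and 0.82, Tbp and Ywhaz rose by 0.36 and 0.35, and Gapdh stood at -0.02 and was not called. In the stretch of chromosome 14 from 40 to 50 Mb, 46 of 62 tested genes rose and 3 fell, with a median of 0.70. Over its genes at 5 CPM or more the median was 0.37, nearer to 0 than the -0.70 of chromosome 19 from 30 to 40 Mb. Prxl2a, a peroxiredoxin-like gene there, rose from 31.8, 29.7 and 39.2 CPM to 82.5, 74.8 and 82.0 CPM, and Cdkn3, a cell cycle phosphatase, fell by 1.30.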
